A study of Mus musculus with 6 samples.

Results

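The genes described here are 36 genes of cholesterol and fatty acid synthesis, chosen by name from the 54532 genes of the count table for their place in the pathway. They fall into 18 enzymes of sterol synthesis, 6 regulators and sterol carriers of the SREBP system, and 12 enzymes that make, elongate or desaturate fatty acids. Transcripts were measured by bulk RNA sequencing of whole mouse adrenal glands in 3 VEGF/LysM samples and 3 WT samples, in a study of what macrophage VEGF-A does for the gland as a whole. Neither the VEGF/LysM allele nor the strain, sex and age of the mice is given in the sources used here. LysM is another name of the lysozyme gene Lyz2, which is expressed in macrophages and also in other myeloid cells, so the group name does not by itself name a single cell type. Nothing says that the replicates came from separate animals, so each p below reflects variation from sample to sample, part or all of which may be technical.

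Sterol synthesis starts from acetyl-CoA, passes through mevalonate, farnesyl diphosphate and squalene to lanosterol, and ends at cholesterol, from which the adrenal cortex makes its steroid hormones. Fatty acid synthesis uses the same acetyl-CoA, which ATP citrate lyase releases from citrate, and carries it through malonyl-CoA to palmitate and then to longer and unsaturated chains. Both are switched on by the sterol regulatory element binding proteins. SREBP-2, encoded by Srebf2, acts mainly on sterol genes, and SREBP-1, encoded by Srebf1, mainly on fatty acid genes. SCAP escorts both precursors from the endoplasmic reticulum to the Golgi for cleavage, and the Insig proteins hold SCAP back when sterol is plentiful.

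SREBPs bind sterol regulatory elements and E-boxes and act with the factor NF-Y, which binds CCAAT boxes. RefSeq promoters of GRCm38.p6, from 250 bases before to 50 bases after the start, were found for 29 of the 36 genes. The promoters of Hmgcs1, Sc5d, Fasn and Srebf1 are shown, each at its outermost listed start. Hmgcs1 is the single gene among those 29 with the sterol element core in its promoter, and Sc5d is the sterol gene that varied most between libraries. Fasn is the central enzyme of the fatty acid arm, and Srebf1 had the smallest p. Capitals mark TCACNCCAC, CACGTG and CCAAT on either strand, and the Fasn promoter holds a CCAAT that overlaps its own reverse complement.
Hmgcs1, chr13:119690101-119690400, plus strand: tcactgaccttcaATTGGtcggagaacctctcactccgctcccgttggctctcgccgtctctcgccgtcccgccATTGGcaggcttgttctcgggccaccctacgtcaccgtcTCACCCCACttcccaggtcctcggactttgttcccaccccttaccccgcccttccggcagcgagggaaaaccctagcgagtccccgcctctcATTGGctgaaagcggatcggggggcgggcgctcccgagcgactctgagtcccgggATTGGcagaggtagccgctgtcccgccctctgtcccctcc
Sc5d, chr9:42264251-42264550, minus strand: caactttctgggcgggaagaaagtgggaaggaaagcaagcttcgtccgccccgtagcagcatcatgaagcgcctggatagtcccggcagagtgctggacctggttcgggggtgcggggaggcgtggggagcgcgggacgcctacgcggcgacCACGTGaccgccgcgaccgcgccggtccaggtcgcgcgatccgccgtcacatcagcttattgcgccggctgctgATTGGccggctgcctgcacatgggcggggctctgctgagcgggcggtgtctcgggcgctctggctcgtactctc
Fasn, chr11:120824498-120824797, minus strand: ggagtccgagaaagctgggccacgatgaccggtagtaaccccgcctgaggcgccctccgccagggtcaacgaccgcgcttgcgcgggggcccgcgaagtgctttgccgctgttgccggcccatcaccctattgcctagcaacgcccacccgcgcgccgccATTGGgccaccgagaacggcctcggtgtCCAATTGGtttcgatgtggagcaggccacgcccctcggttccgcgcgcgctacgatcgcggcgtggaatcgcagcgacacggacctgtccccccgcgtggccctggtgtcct
Srebf1, chr11:60222532-60222831, minus strand: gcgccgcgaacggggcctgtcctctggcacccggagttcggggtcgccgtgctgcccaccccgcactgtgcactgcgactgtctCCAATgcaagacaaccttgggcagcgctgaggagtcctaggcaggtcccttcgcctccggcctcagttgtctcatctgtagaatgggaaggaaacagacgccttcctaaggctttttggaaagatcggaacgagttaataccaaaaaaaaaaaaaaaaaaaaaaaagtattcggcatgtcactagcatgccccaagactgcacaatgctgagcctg

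The sterol element core TCACNCCAC was found in 1 of 29 member genes with a promoter, against 1.44% of all 27025 genes in the table, and its first base in Hmgcs1 lies 137 bases before the start. The E-box CACGTG was found in 6 of the 29, Dhcr7, Hsd17b7, Sc5d, Insig1, Scap and Elovl5, against 8.09% of all genes. CCAAT was found in 24 of the 29, or 82.8%, against 41.1% of all genes. By arm, CCAAT stood in 14 of 15 sterol genes, 4 of 5 regulators and 6 of 9 fatty acid genes. These are matches of letters in a window of 300 bases and not binding sites, and no match says nothing about a site elsewhere.

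Library totals ran from 16476879 to 18671950 counts. The summed level of 8 hepatocyte markers was 1.70, 5.10 and 220 CPM in VEGF/LysM replicates 1, 2 and 3, against 2.27, 2.06 and 67000 CPM in WT replicates 1, 2 and 3. CPM stands for counts per 1e6 counts of the library after TMM scaling. WT replicate 3 therefore stands apart, and VEGF/LysM replicate 3 to a lesser degree. No hepatocyte marker was at 0 in either replicate 3, while 1 to 4 of the 8 were at 0 in each of the others. The summed level of 8 adrenal cortex markers, among them Star and Cyp11a1, was 44100 to 53500 CPM in VEGF/LysM and 28200 to 49600 CPM in WT, lowest in WT replicate 3, so every library carries transcripts of the labelled tissue. In a bulk sample, fewer cells of a type and less RNA per cell cannot be told apart. Results are given with and without WT replicate 3.

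No member passed the comparison of VEGF/LysM with WT. At an adjusted p of 0.05, 0 of the 36 were called by edgeR's quasi-likelihood method (smallest adjusted p = 0.999), as were 0 of 16300 genes tested, or 0%. At an unadjusted p under 0.05 it found 2 members, Srebf1 and Pmvk, both lower in VEGF/LysM, where 1.94% of all genes were lower at that level and 2.82% were so in either direction. DESeq2 and limma-voom also called 0 members. All 36 had at least 148 counts in every library, so none was lost to the filter on low counts. The log2 fold change was below 0 in 30 of 36, against 49.7% of all genes, and its median was -0.50, against 0.001 over all genes. Without WT replicate 3 it was below 0 in 22 of 36, against 48.5% of all genes, and the median was -0.065. With VEGF/LysM replicate 3 left out as well it was below 0 in 23, against 49.9%. In the fit of all 6 libraries the median member's 95% interval, not adjusted for the number of genes, reached 0.92 log2 units to either side. A smaller fitted change would leave 0 inside an interval of that width, and a call after adjustment would take a larger change still. Some intervals were narrower, as for Srebf1, at -0.97 to -0.16. Fitted changes larger in size than 0.92 log2 units, such as -1.47 for Sc5d, did not pass either (edgeR adjusted p = 0.999).

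**Figure D1:**
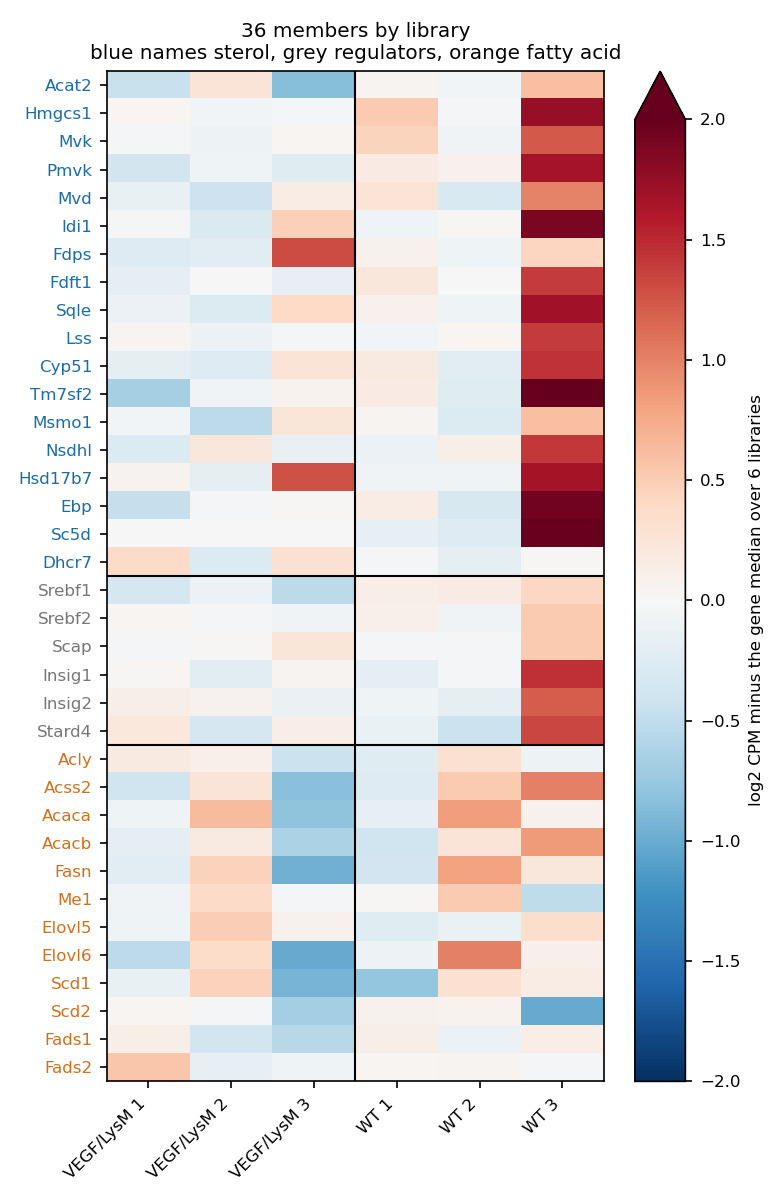
Level of each of the 36 genes in each library, as log2 CPM minus that gene's median over 6 libraries (colour), with VEGF/LysM libraries left of WT libraries. Most sterol genes and the regulators are highest in WT 3 (Fdps and Dhcr7 are not), where Tm7sf2 and Sc5d exceed the colour scale. The fatty acid genes differ mainly between libraries of the same group.

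The sterol arm and the fatty acid arm differed in which libraries were high. For each gene the median log2 CPM over the 6 libraries was subtracted, and the median of these deviations was taken over the arm. The sterol arm stood at -0.13, -0.11 and 0.061 in VEGF/LysM replicates 1, 2 and 3, against 0.088, -0.077 and 1.43 in WT replicates 1, 2 and 3. The high value is that of WT replicate 3 alone, and the other 5 libraries lie within a narrow band in which the groups overlap. The fatty acid arm stood at -0.087, 0.32 and -0.66 in the VEGF/LysM replicates, against -0.20, 0.31 and 0.11 in the WT replicates. Here replicate 2 of each group is high, VEGF/LysM replicate 3 is low, and the groups overlap. Over all genes tested the same median lay between -0.005 and 0.006 in every library. TMM scaling holds that median near 0, so it does not show how far a set of this size may stray.

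Subtracting the fatty acid from the sterol deviation gave -0.042, -0.43 and 0.72 in the VEGF/LysM replicates, against 0.29, -0.39 and 1.32 in the WT replicates. The 2 groups overlap in this difference as well. With WT replicate 3 left out and the gene medians taken over 5 libraries, the difference was 0.0, -0.48 and 0.68 in VEGF/LysM, against 0.21 and -0.46 in WT. The fitted median log2 fold change was -0.69 in the sterol arm and -0.17 in the fatty acid arm, a difference of -0.51. Without WT replicate 3 these were -0.046 and -0.22, with the difference turned to 0.18, and without VEGF/LysM replicate 3 as well they were -0.17 and -0.078, a difference of -0.093. No direction of one arm against the other held in all 3 sets of libraries. The fatty acid median also turned to 0.050 without VEGF/LysM replicate 3 and to 0.090 without WT replicate 2. The 6 regulators had a median of -0.45, or 0.075 without WT replicate 3.

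**Figure D2:**
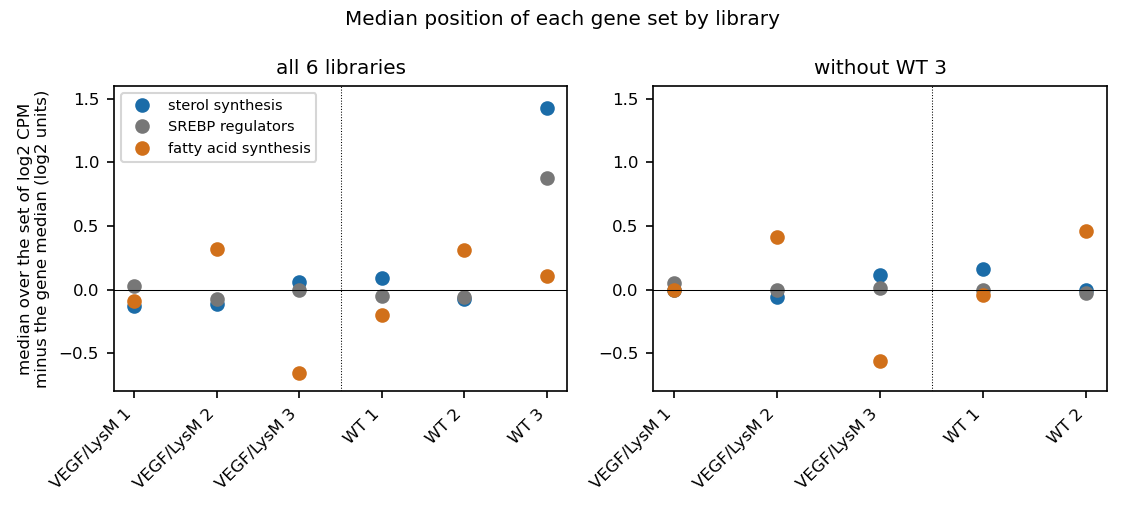
Median over each gene set of log2 CPM minus the gene median, per library, in all 6 libraries (left) and without WT 3 (right). With 6 libraries the sterol set lies between -0.13 and 0.061 in VEGF/LysM and at 1.43 in WT 3, while the fatty acid set ranges from -0.66 to 0.32 across VEGF/LysM libraries alone.

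In the first steps of sterol synthesis, acetyl-CoA units are joined into HMG-CoA, and mevalonate is then phosphorylated and decarboxylated to the isoprene unit. Hmgcs1, HMG-CoA synthase (ENSMUSG00000093930, chromosome 13, 119690379 to 119708260, GRCm38), read 203, 191 and 192 CPM in VEGF/LysM, against 283, 192 and 663 CPM in WT. WT replicates 1 and 3 lie above all VEGF/LysM libraries and WT replicate 2 lies among them. Its log2 fold change was -0.96 ± 0.43 (SE; edgeR adjusted p = 0.999), or -0.28 without WT replicate 3.

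Pmvk, phosphomevalonate kinase (ENSMUSG00000027952, chromosome 3, 89454541 to 89469013), was the 1 sterol gene whose groups did not overlap. It read 20.5, 24.9 and 22.5 CPM in VEGF/LysM, against 29.7, 28.2 and 83.7 CPM in WT. The gap between WT replicate 2 and the highest VEGF/LysM library is small beside the distance of WT replicate 3 from both. The log2 fold change was -1.06 ± 0.43 (SE; edgeR adjusted p = 0.999), and without WT replicate 3 it was -0.36 ± 0.17 with the groups still apart. Mvk, mevalonate kinase, read 29.3, 28.0 and 31.1 CPM in VEGF/LysM, against 41.1, 28.8 and 70.3 CPM in WT. Its WT replicate 2 falls within the VEGF/LysM values, and its log2 fold change was -0.67, or -0.25 without WT replicate 3. Groups that do not overlap, with VEGF/LysM lower, were found for 2 members, Pmvk and Srebf1, and for 2.41% of all genes. With VEGF/LysM higher they were found for 0 members and 3.54% of all genes.

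Acat2, the cytosolic thiolase that joins the first acetyl-CoA pair, ranged from 41.4 to 89.5 CPM in VEGF/LysM and from 72.2 to 114 CPM in WT. Of the 31-base words in its transcripts, 43.7% also occur in Acat3, which had 10, 36 and 24 counts in VEGF/LysM, against 41, 29 and 1342 counts in WT. The Acat2 value of WT replicate 3 is therefore uncertain. Mvd, which decarboxylates mevalonate diphosphate, ranged from 21.0 to 31 CPM in VEGF/LysM and from 22.6 to 56.1 CPM in WT. Idi1, which isomerises the isoprene unit, read 41.1, 34.2 and 58.2 CPM in VEGF/LysM, against 39.5, 42.9 and 155 CPM in WT. Without WT replicate 3 its log2 fold change turned to 0.11, against -0.83 with it.

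Farnesyl diphosphate, the branch point towards sterols, is made by Fdps. Fdps read 8.68, 8.83 and 25.7 CPM in VEGF/LysM, against 11.0, 9.74 and 13.9 CPM in WT, so its high library is VEGF/LysM replicate 3. Its counts are uncertain, because 16% of its 31-base words occur in the gene Gm3571, which held 211 to 449 counts per library against 148 to 436 for Fdps itself. Fdft1, squalene synthase, read 81.4, 93.8 and 83.6 CPM in VEGF/LysM, against 109, 92.6 and 245 CPM in WT. It shares 17.6% of its words with transcripts of Ctsb, a gene with 18034 to 37771 counts, lowest in WT replicate 3, where Fdft1 is highest. Its log2 fold change was -0.79, or -0.23 without WT replicate 3.

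Sqle, squalene epoxidase, a control point of the pathway, read 53.1, 47.7 and 76.0 CPM in VEGF/LysM, against 61.2, 54.2 and 184 CPM in WT. The groups overlap, and the log2 fold change was -0.76 in all libraries and 0.027 without WT replicate 3. Lss, which closes the ring to lanosterol, lay between 49.5 and 55.7 CPM in VEGF/LysM and at 51.4, 55.3 and 141 CPM in WT. Among the 5 other libraries its highest level was 1.12 times its lowest, the smallest such ratio of any member.

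Cyp51, Msmo1 and Nsdhl act in turn on the methyl groups of lanosterol. Cyp51, which demethylates lanosterol, ranged from 84.6 to 123 CPM in VEGF/LysM and from 88.0 to 276 CPM in WT. Msmo1, the C4 methyl oxidase, ranged from 127 to 217 CPM in VEGF/LysM and from 151 to 277 CPM in WT. Nsdhl, which acts after it, ranged from 31.5 to 44.6 CPM in VEGF/LysM and from 35.0 to 101 CPM in WT. In all 3 the highest library was WT replicate 3 and the other libraries of both groups overlap.

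Tm7sf2, a sterol C14 reductase, read 19.8, 29.8 and 33.2 CPM in VEGF/LysM, against 35.2, 26.5 and 132 CPM in WT. It shares 10.7% of its 31-base words with Vps51. Ebp, the sterol isomerase, read 35.6, 48.5 and 50 CPM in VEGF/LysM, against 54.4, 39.6 and 187 CPM in WT. Their log2 fold changes were -1.22 and -1.06, or -0.17 and -0.076 without WT replicate 3.

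Sc5d, the C5 desaturase (ENSMUSG00000032018, chromosome 9, 42251595 to 42264256), read 100, 97.9 and 100 CPM in VEGF/LysM, against 88.7, 82.9 and 656 CPM in WT. WT replicate 3 was 7.65 times the mean of WT replicates 1 and 2, the largest such ratio among the members. The log2 fold change was -1.47 ± 0.79 (SE; edgeR adjusted p = 0.999). Without WT replicate 3 it was 0.21 ± 0.13, with VEGF/LysM higher and the groups apart.

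Hsd17b7, the ketoreductase of C4 demethylation, was high in a library of each group. It read 48.6, 40.9 and 112 CPM in VEGF/LysM, against 44.1, 44.3 and 147 CPM in WT. Both replicates 3 stand well above the other 4 libraries, which are close together. Both replicates 3 also hold the highest hepatocyte sums, though these lie far apart, at 220 CPM in VEGF/LysM and 67000 CPM in WT. Whether liver transcripts have a part in the Hsd17b7 values was not tested. Without both replicates 3 the log2 fold change of Hsd17b7 was 0.023.

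Dhcr7, which makes the last reduction to cholesterol by one of the routes (ENSMUSG00000058454, chromosome 7, 143823145 to 143848410), did not follow the rest of the arm. It read 553, 351 and 524 CPM in VEGF/LysM, against 417, 375 and 434 CPM in WT, with WT replicate 3 in the middle of the range. Dhcr7 and Fdps were the 2 sterol genes for which WT replicate 3 was not the highest library. Its log2 fold change was 0.22 with a 95% interval of -0.28 to 0.72. WT replicate 3 was the highest library for 16 of 18 sterol genes and the lowest for 0, against 28.4% and 29.7% of all genes, and its level was a median of 1.43 log2 units above the mean of WT replicates 1 and 2.

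**Figure D3:**
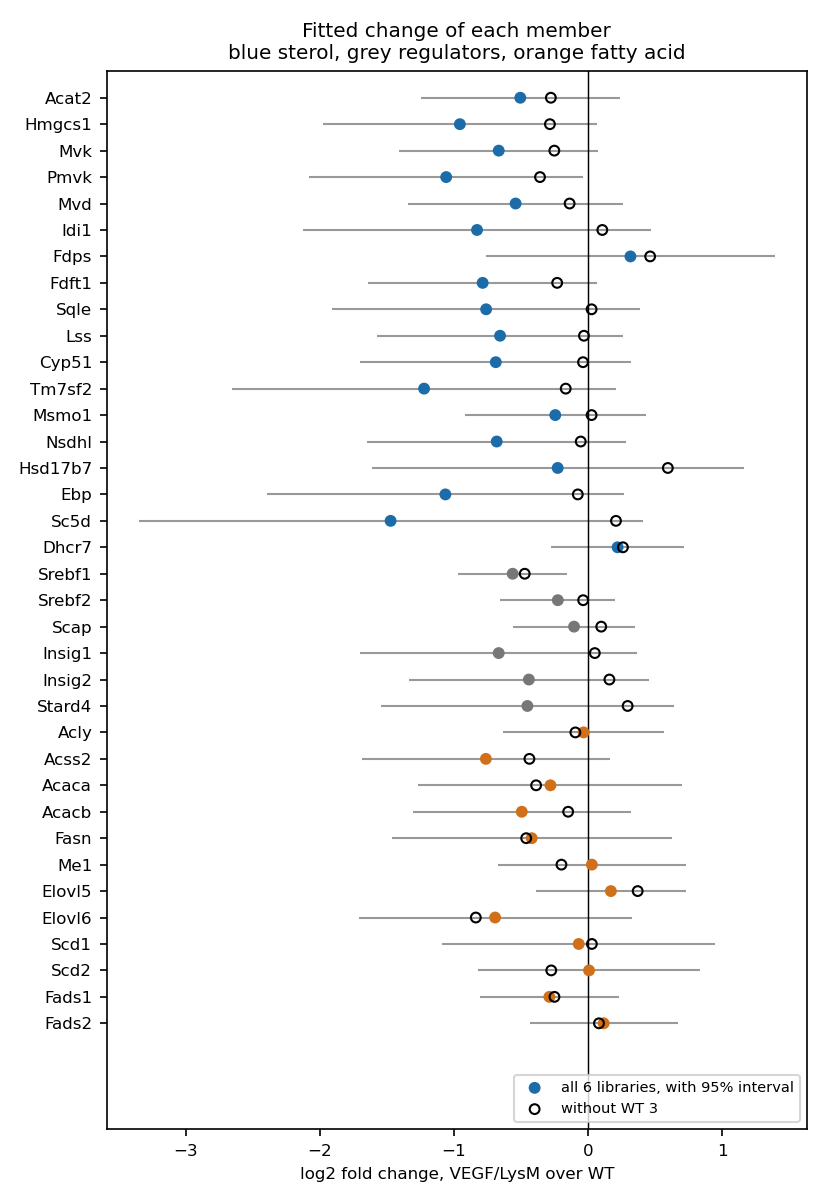
Log2 fold change of VEGF/LysM over WT for each gene in all 6 libraries (filled points, with 95% intervals) and without WT 3 (open circles). The sterol genes lie mostly left of 0 with WT 3 and close to 0 without it, with medians of -0.69 and -0.046.

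Srebf1 (ENSMUSG00000020538, chromosome 11, 60199089 to 60222581, minus strand) had the smallest p of the 36. It read 241, 283 and 214 CPM in VEGF/LysM, against 336, 345 and 409 CPM in WT. The lowest WT library lies above the highest VEGF/LysM library, and the groups stayed apart when WT replicate 3 was left out. Srebf1 averaged 246 ± 34.9 CPM in VEGF/LysM and 363 ± 39.6 CPM in WT (SD, n = 3 each). The log2 fold change was -0.56 ± 0.17 (SE), with a 95% interval of -0.97 to -0.16, and it did not pass (edgeR adjusted p = 0.999). It was -0.47 without WT replicate 3, -0.37 without both libraries with liver transcripts, and -0.69 to -0.47 over the fits that left out 1 library. Red cell transcripts separated the groups in the same direction. The summed level of 4 red cell markers was 167, 86.1 and 152 CPM in VEGF/LysM, against 572, 202 and 384 CPM in WT, and all 4 had an unadjusted p under 0.05, with a median log2 fold change of -1.41 in all libraries and -1.52 when WT replicate 3 was left out. None passed over all genes (edgeR adjusted p = 0.999 for each), and their part in the Srebf1 value was not tested. The Srebf1 count is of the whole gene, so the transcripts of SREBP-1a and SREBP-1c, which start at different promoters, cannot be told apart.

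Srebf2 read 140, 134 and 131 CPM in VEGF/LysM, against 147, 130 and 197 CPM in WT. WT replicate 3 alone is high, and the log2 fold change was -0.23 with a 95% interval of -0.65 to 0.20, or -0.036 without that library. Scap read 133, 136 and 159 CPM in VEGF/LysM, against 133, 133 and 194 CPM in WT. Its log2 fold change was -0.10 in all libraries and 0.099 when WT replicate 3 was left out. These 2 genes varied little, by at most 1.52 times between any 2 libraries for Srebf2 and 1.46 times for Scap.

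Insig1, itself a known SREBP target, read 144, 120 and 147 CPM in VEGF/LysM, against 125, 138 and 388 CPM in WT. Insig2 read 54.0, 53.0 and 45.6 CPM in VEGF/LysM, against 47.1, 43.7 and 116 CPM in WT. In both, WT replicate 3 stands apart and the other 5 libraries overlap, and the log2 fold changes of -0.67 and -0.44 turned to 0.051 and 0.16 without it. Stard4, which carries cholesterol between membranes, ranged from 37.2 to 54.2 CPM in VEGF/LysM and from 34.9 to 118 CPM in WT. WT replicate 3 was the highest library for all 6 regulators, Srebf1 included.

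Without WT replicate 3, groups that do not overlap were found for 5 members, or 13.9%, where the shares of all genes were 7.49% with VEGF/LysM higher and 6.9% with VEGF/LysM lower, or 14.4% in all. They were Sc5d and Elovl5 with VEGF/LysM higher and Pmvk, Srebf1 and Scd2 with VEGF/LysM lower. In these 5 libraries edgeR called 0 members and 1 of 16659 genes (0.006%), and 1 member, Srebf1, had an unadjusted p under 0.05, where 0.786% of all genes were lower at that level and 2.09% in either direction.

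Most fatty acid genes stood at higher levels than the sterol genes, 8 of 12 above every sterol gene per kilobase. Per kilobase of annotated exon and averaged over the 5 libraries other than WT replicate 3, Scd1 was at 1200 CPM per kb, Acly at 457, Me1 at 394 and Fasn at 350. The highest sterol genes on that scale were Dhcr7 at 76.3 and Hmgcs1 at 46.2 CPM per kb, and the lowest was Fdps at 3.04. The highest level was a median of 1.78 times the lowest over those 5 libraries in the fatty acid arm and 1.55 times in the sterol arm, against 1.51 times over all genes.

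Fasn, the synthase that builds palmitate (ENSMUSG00000025153, chromosome 11, 120805846 to 120824547), read 3120, 5020 and 1860 CPM in VEGF/LysM, against 2800, 6340 and 4230 CPM in WT. Replicate 2 is the highest library of each group and VEGF/LysM replicate 3 the lowest of all. Fasn averaged 3330 ± 1600 CPM in VEGF/LysM and 4460 ± 1780 CPM in WT (SD, n = 3 each), and the difference is smaller than either SD. The log2 fold change was -0.42 with a 95% interval of -1.47 to 0.63.

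Acaca and Acacb encode the acetyl-CoA carboxylases, the first mainly for synthesis in the cytosol and the second at the mitochondrial surface. Acaca read 537, 887 and 326 CPM in VEGF/LysM, against 506, 1020 and 604 CPM in WT. It shares 31.7% of its 31-base words with Gm5182, which had 1096, 1705 and 544 counts in VEGF/LysM, against 589, 2189 and 793 counts in WT. Gm5182 was thus highest in both replicates 2 and lowest in VEGF/LysM replicate 3, as Acaca was. The Acaca values are therefore uncertain. Acacb read 180, 231 and 132 CPM in VEGF/LysM, against 155, 245 and 366 CPM in WT. The pair differed in WT replicate 3, which was the highest library for Acacb and not for Acaca. Their log2 fold changes were -0.28 and -0.49, with intervals that include 0.

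Acly, ATP citrate lyase, read 2700, 2580 and 1780 CPM in VEGF/LysM, against 2030, 2970 and 2220 CPM in WT. Me1, the malic enzyme that supplies NADPH, read 1260, 1730 and 1310 CPM in VEGF/LysM, against 1350, 1920 and 938 CPM in WT, lowest in WT replicate 3. Of the words of Me1, 28.6% occur in Gm7049, which had at most 24 counts. Acss2, which makes acetyl-CoA from acetate, read 143, 226 and 105 CPM in VEGF/LysM, against 157, 270 and 377 CPM in WT. The log2 fold changes of Acly, Me1 and Acss2 were -0.033, 0.029 and -0.76, each with overlapping groups.

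Scd1 and Scd2 are neighbouring genes on chromosome 19 (44394455 to 44407879 and 44293674 to 44306864) for desaturases that make monounsaturated fatty acids. Scd1 read 5730, 8760 and 3340 CPM in VEGF/LysM, against 3740, 7870 and 7080 CPM in WT. Scd2 read 1640, 1540 and 987 CPM in VEGF/LysM, against 1690, 1670 and 793 CPM in WT. Both were low in VEGF/LysM replicate 3, but WT replicate 3 was near WT replicate 2 for Scd1 and the lowest of all for Scd2. The log2 fold changes were -0.069 for Scd1, with a 95% interval of -1.09 to 0.95, and 0.0080 for Scd2, with one of -0.82 to 0.83. The direction of Scd2 turned with DESeq2 size factors. Scd2 shares 4.63% of its 31-base words with Scd1, so the split of reads between them is less certain than for genes with no copy.

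Elovl6 extends palmitate, and Elovl5 extends polyunsaturated fatty acids. Elovl6 read 185, 343 and 132 CPM in VEGF/LysM, against 249, 533 and 284 CPM in WT. Its log2 fold change was -0.69 with a 95% interval of -1.71 to 0.33, and -0.84 ± 0.41 (SE) without WT replicate 3, the largest of any member in that fit. Elovl5 read 459, 685 and 519 CPM in VEGF/LysM, against 412, 443 and 622 CPM in WT. It differed from Elovl6 in sign, at 0.17 in all libraries and 0.37 without WT replicate 3, where its groups did not overlap. Neither passed the test (edgeR adjusted p = 0.999 in all libraries).

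Fads1 and Fads2 are the delta-5 and delta-6 desaturases of polyunsaturated fatty acids. Fads1 read 952, 687 and 598 CPM in VEGF/LysM, against 952, 818 and 963 CPM in WT. Fads2 read 1440, 873 and 922 CPM in VEGF/LysM, against 1010, 1020 and 952 CPM in WT. In both genes VEGF/LysM replicate 1 was the highest of its group and the groups overlap, whereas Fasn and Scd1 were highest in replicate 2 of each group. Their log2 fold changes were -0.29 and 0.12.

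**Figure D4:**
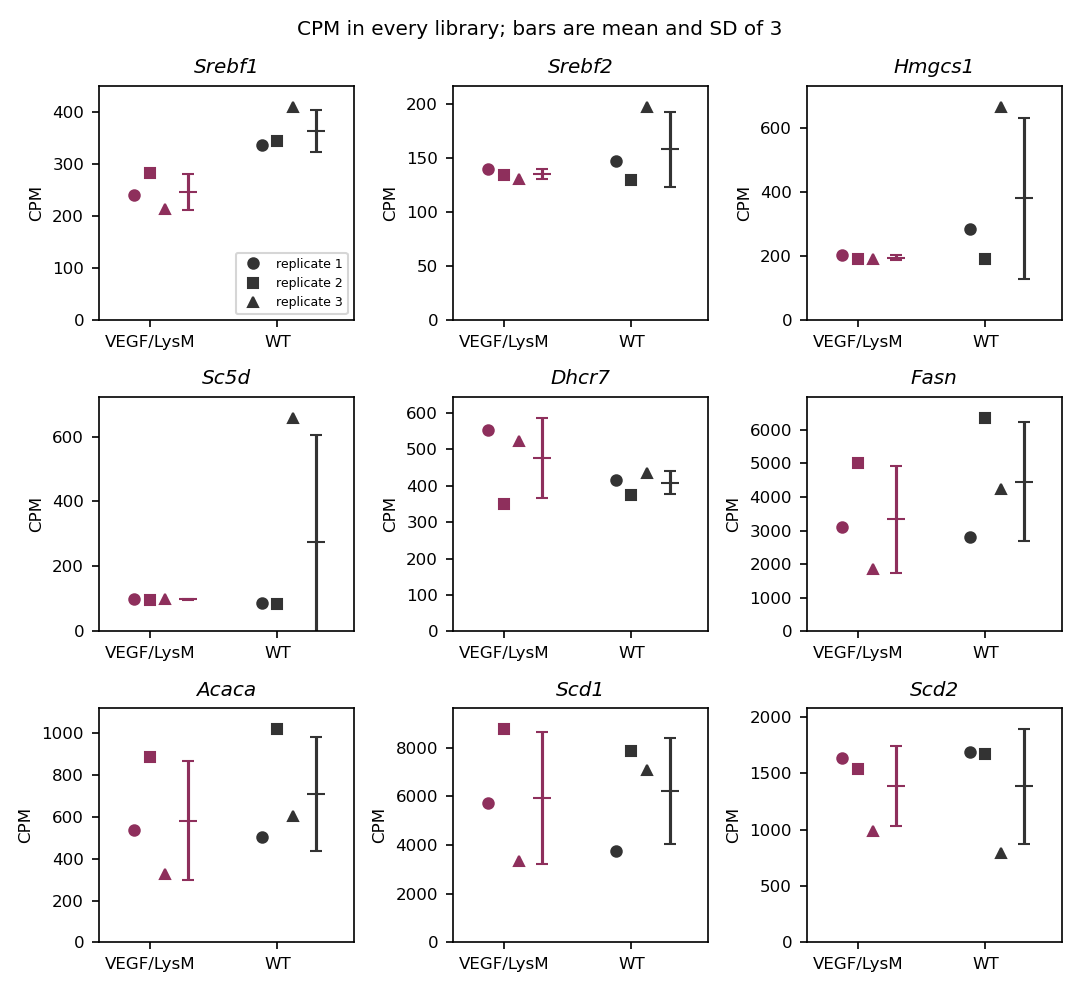
CPM of 9 genes in every library (points; circle, square and triangle for replicates 1, 2 and 3) with the mean and SD of 3 (bars; for Sc5d in WT the bar is cut off at 0), VEGF/LysM left of WT. Srebf1 separates the groups, at 214 to 283 CPM in VEGF/LysM and 336 to 409 CPM in WT, while Fasn, Acaca and Scd1 differ more within a group than between them.

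Over the fatty acid arm, 7 of 12 genes had both replicates 2 highest when the 5 libraries other than WT replicate 3 were ranked, namely Acss2, Acaca, Acacb, Fasn, Me1, Elovl6 and Scd1. This was so for 1 of 18 sterol genes, 0 of 6 regulators and 8.3% of all genes. VEGF/LysM replicate 3 was the lowest of the 5 libraries for 9 of 12 fatty acid genes, against 2 of 18 sterol genes and 26% of all genes. In all 6 libraries, 5 of the 12 had both replicates 2 above the rest, against 4.54% of all genes. Acaca is uncertain in these counts, given the words it shares with Gm5182. These patterns were noticed in the values and are given as a description, and nothing in the labels ties the replicates numbered 2 to each other.

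Adipocytes also make fatty acids, and the gland is embedded in fat. The summed level of 8 adipocyte markers was 1660, 4350 and 3890 CPM in the VEGF/LysM replicates, against 4080, 3930 and 2880 CPM in the WT replicates, and no marker was at 0. The summed level of the 12 fatty acid genes was 18300, 23600 and 12000 CPM in VEGF/LysM, against 15100, 25100 and 19400 CPM in WT. The adipocyte marker with the highest level in every library was Cfd, which encodes adipsin. It read 504, 2700 and 2520 CPM in VEGF/LysM, against 2850, 2470 and 1340 CPM in WT. Single markers differed in which libraries were high. Plin1, a lipid droplet protein, read 280, 396 and 296 CPM in VEGF/LysM, against 248, 383 and 323 CPM in WT, highest in both replicates 2 as 5 of the fatty acid genes were. Cidea, a lipid droplet protein abundant in brown fat, read 129, 118 and 26.5 CPM in VEGF/LysM, against 63.8, 80.1 and 188 CPM in WT, lowest in VEGF/LysM replicate 3 and highest in WT replicate 3. Ucp1, the uncoupling protein of brown fat, read 150, 167 and 11.7 CPM in VEGF/LysM, against 19.5, 49.1 and 364 CPM in WT. Cidec read 244, 309 and 394 CPM in VEGF/LysM, against 307, 314 and 341 CPM in WT, highest in VEGF/LysM replicate 3. Adipoq read 222, 381 and 381 CPM in VEGF/LysM, against 311, 383 and 225 CPM in WT. Retn read 71.2, 244 and 236 CPM in VEGF/LysM, against 262, 220 and 94.7 CPM in WT. Lep read 55.7, 26.6 and 19.2 CPM in VEGF/LysM, against 23.6, 30.7 and 6.91 CPM in WT. The part of adipocyte transcripts in the fatty acid values was not tested.

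**Figure D5:**
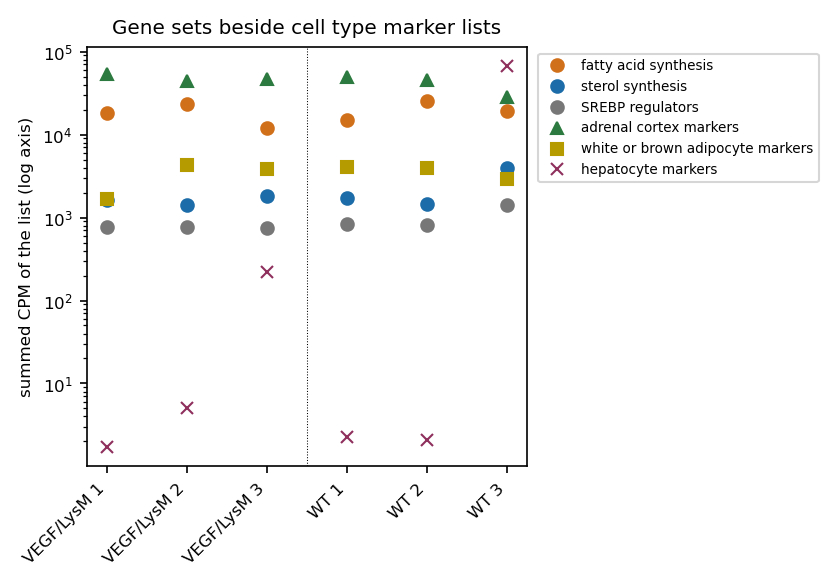
Summed CPM, on a log axis, of the 3 gene sets and of adrenal cortex, adipocyte and hepatocyte marker lists in each library, VEGF/LysM left of WT. The hepatocyte sum is 220 CPM in VEGF/LysM 3 and 67000 CPM in WT 3, and the sterol sum is 1410 to 1810 CPM in the VEGF/LysM libraries and 3940 CPM in WT 3.

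The sterol genes summed to 1630, 1410 and 1810 CPM in the VEGF/LysM replicates, against 1720, 1450 and 3940 CPM in the WT replicates. The liver makes much of the body's cholesterol, and WT replicate 3 holds both the highest hepatocyte sum and the highest sterol sum. Other marker lists also set that library apart. The summed level of 6 lymphocyte markers was 6.47 to 14.5 CPM in VEGF/LysM, against 13.3, 24.0 and 261 CPM in WT replicates 1, 2 and 3, and that of 5 kidney tubule markers was 0.293 to 2.71 CPM in VEGF/LysM, against 0.455, 0.773 and 33.9 CPM in WT. The sum of 6 chromaffin markers was 5760 to 9420 CPM in VEGF/LysM, against 6930, 5380 and 3770 CPM in WT, lowest in WT replicate 3. The part of liver or other transcripts in the sterol values of that library was not tested. Without WT replicate 3 the sterol sum averaged 1620 ± 197 CPM in VEGF/LysM (SD, n = 3) and 1580 ± 191 CPM in WT (SD, n = 2), a difference smaller than the spread within either group.

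Among 36 other genes of the SREBP pathway, 35 were tested and 0 passed (1 at an unadjusted p under 0.05; DESeq2 and limma-voom also called 0). Over all genes 2.82% had an unadjusted p under 0.05, and 1 of 35 is about that share. The log2 fold changes of the list were below 0 in 22 and above 0 in 13, against 49.7% of all genes below 0, with a median of -0.12, or 0.033 without WT replicate 3. The smallest p was that of Elovl2, an elongase of long polyunsaturated chains, at 0.704, 0.946 and 1.77 CPM in VEGF/LysM, against 0.739, 0.258 and 288 CPM in WT. Its high level is that of WT replicate 3 alone, and without that library its log2 fold change was 1.19. The next was Gpam, which starts triglyceride synthesis, at 367, 399 and 359 CPM in VEGF/LysM, against 200, 340 and 286 CPM in WT, a log2 fold change of 0.45 ± 0.22 (SE; edgeR adjusted p = 0.999). It kept this direction without WT replicate 3, at 0.47.

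The proteases Mbtps1 and Mbtps2, which cut SREBP precursors in the Golgi, had log2 fold changes of 0.20 ± 0.15 and 0.31 ± 0.19 (SE). Abca1, a cholesterol exporter driven by the sterol-sensing receptors LXR, had 0.28 ± 0.20, and Nr1h3, which encodes LXR alpha, had -0.88 ± 0.52, or 0.022 without WT replicate 3. Slc25a1, the citrate carrier that feeds Acly, read 297, 536 and 233 CPM in VEGF/LysM, against 528, 645 and 506 CPM in WT. Its highest libraries within each group are the replicates 2, as for Fasn, and its log2 fold change was -0.66 ± 0.32, or -0.73 without WT replicate 3. Thrsp, a lipogenic factor of liver and fat, read 546, 878 and 474 CPM in VEGF/LysM, against 718, 926 and 1080 CPM in WT. The genes of this paragraph did not pass the test (edgeR adjusted p = 0.999 for each) and were named after their values were seen.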

How the data were processed

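The submitters' processing notes name mm10, kallisto and DESeq2 1.36.0, without saying which step each served. Per the labels' protocols, libraries followed Smart-seq2, which does not mark strand. The authors deposited whole-number counts per gene for 6 libraries, not normalised. Columns were assigned to samples through the titles. Gene symbols came from GENCODE M21 identifiers, which also gave positions (GRCm38) and exon lengths.

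Counts were filtered (filterByExpr, minimum count 10, minimum total 15), scaled by TMM and tested with edgeR 4.0.16 (quasi-likelihood, group as the only term) under R 4.3.3. Benjamini-Hochberg adjustment covered all 16300 genes, with a threshold of 0.05. TMM factors were 1.02 to 1.03 in VEGF/LysM, 1.05 in WT replicates 1 and 2 and 0.84 in WT replicate 3. Log2 fold changes are VEGF/LysM over WT, with standard errors and 95% intervals from the fit. Log2 CPM used a prior count of 2. These steps were also tested on simulated data. Alternatives were other scalings, filters and tools (DESeq2 1.42.0, limma 3.58.1), a replicate block, and leaving out libraries.

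The members and lists were chosen with earlier results of these data known. Every member is accounted for. Values in every library follow a rule: groups apart, smallest p, largest difference of WT replicate 3, pathway regulators and paralog pairs. Dhcr7, Fdps, Fasn, Acly, Me1, Acss2 and Lss were added after their values were seen. Shared sequence is the share of a gene's 31-base transcript words, on either strand, found in transcripts of another GENCODE gene.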

Additional observations from a re-analysis of the deposited data

How the results depend on the processing

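No member was called under any alternative run, and no other gene of the pathway list was. Over all genes the count of calls was 0 under every alternative except without WT replicate 3, where it was 1 (0 to 1 over the fits that left out 1 library). Direction held for all 36 members with upper-quartile scaling, either filter, limma-voom and the replicate block, and for 35 with DESeq2 size factors or DESeq2, where Scd2 turned to -0.0004 and -0.00041. The replicate block gave arm medians of -0.55 (sterol), -0.27 (regulators) and -0.21 (fatty acid) and changed no call. Nothing in the labels says that the replicate numbers pair the samples. Same-numbered libraries had correlations of deviations from the group mean of 0.064, -0.014 and 0.25. VEGF/LysM replicates 1 and 2 correlated best with libraries of another number, and VEGF/LysM replicate 3 with WT replicate 3. These correlations cannot decide whether samples were paired, because WT replicate 3 alone shifts the deviations of all WT libraries. Leaving out 1 library gave sterol medians of -0.95 to -0.046 and regulator medians of -0.64 to 0.075. Without both libraries with liver transcripts the regulator median was 0.017, and members that turned were Fdps -0.24, Nsdhl 0.0017, Hsd17b7 0.023, Sc5d 0.21, Scap 0.025, Insig1 0.0086, Insig2 0.24, Stard4 0.25, Acly 0.083, Acacb 0.047, Me1 -0.12, Scd1 0.33, Scd2 -0.069. Ranges of log2 fold change over the fits that left out 1 library, for members that turned in any, were Acaca -0.73 to 0.075, Acly -0.16 to 0.15, Elovl5 -0.026 to 0.37, Fads2 -0.17 to 0.23, Fdps -0.40 to 0.56, Hsd17b7 -0.81 to 0.60, Idi1 -1.15 to 0.11, Insig1 -0.94 to 0.051, Insig2 -0.68 to 0.16, Me1 -0.20 to 0.32, Msmo1 -0.43 to 0.027, Sc5d -1.90 to 0.21, Scap -0.20 to 0.10, Scd1 -0.47 to 0.22, Scd2 -0.27 to 0.20, Sqle -1.05 to 0.027, Stard4 -0.75 to 0.30. WT replicate 3 turned 12 members when left out, the others 0 to 4 each. The cause of these turns was not tested. Outliers were not assessed in groups of 3. The lowest member count was 148, and counting error was not compared with the spread between libraries.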
